A study of Mus musculus with 2 samples.

Results

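The MHC class II presentation genes are described here across the nonparenchymal cells (NPCs) of mouse liver, in NASH brought about by a diet that lacks methionine and choline (the MCD diet), and in control mice. They were chosen by name as *Cd74*, *H2-Aa*, *H2-Ab1*, *H2-Eb1*, *H2-DMa*, *H2-DMb1* and *Ciita*, which makes 7 of the 16383 genes analysed, and all 7 held counts in both libraries. Male C57BL/6 mice, 8 weeks old at the start, made up both groups, and were fed for 6 weeks with the MCD diet in the NASH group and with chow in the control group. Since chow is not a matched diet, the lack of methionine and choline cannot be told apart from the other differences between the diets. The livers of 3 mice of a diet were combined and their NPCs captured in the microwells of the BD Rhapsody system, which gives 1 library per diet, and each transcript was counted by its unique molecular identifier (UMI). No test between diets was therefore possible, and every interval below is a 95% interval that covers counting error only, not the spread between mice.

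Class II molecules are pairs of an alpha and a beta chain that display peptides from engulfed material to CD4 T cells. *H2-Aa* and *H2-Ab1* encode the I-A pair and *H2-Eb1* the I-E beta chain. No gene of an I-E alpha chain was among the genes chosen. The *H2-Eb1* values below are therefore levels of RNA only, and whether an I-E pair forms in these mice was not tested. *Cd74* encodes the invariant chain, which escorts the pair to the endosome and fills its groove until proteases such as cathepsin S cut it down. *H2-DMa* and *H2-DMb1* encode the H2-M dimer, which exchanges the remaining stub for a peptide, and H2-O, encoded by *H2-Oa* and *H2-Ob*, restrains H2-M in B cells and some dendritic cells. *Ciita* encodes the coactivator that switches the whole group on. In the liver, dendritic cells, B cells, Kupffer cells and monocyte-derived macrophages are the professional presenting cells, and liver sinusoidal endothelial cells (LSECs) have been described as presenting antigen as well.

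On GRCm38 the genes of the I-A, I-E and H2-M chains lie together on chromosome 17, at chr17:34282744-34287823 on the minus strand for *H2-Aa* and, all on the plus strand, at chr17:34257689-34269419 for *H2-Ab1*, chr17:34305867-34316674 for *H2-Eb1*, chr17:34119541-34139101 for *H2-DMa* and chr17:34153072-34160230 for *H2-DMb1*. *Ciita* lies on chromosome 16, at chr16:10480059-10528418. A promoter entry of RefSeq (GRCm38.p6) was matched for 4 of the 7 genes. Class II promoters are known for an X box followed by a Y box, which the RFX, CREB and NF-Y factors bind together before *Ciita* joins them. The stretches before the start sites of *H2-Aa* and *H2-Eb1* are shown as those of an alpha and a beta chain gene, with the letters searched for in capitals. They run for 150 bases up to the start site, at chr17:34287824-34287973 on the minus strand and chr17:34305717-34305866 on the plus strand.
H2-Aa: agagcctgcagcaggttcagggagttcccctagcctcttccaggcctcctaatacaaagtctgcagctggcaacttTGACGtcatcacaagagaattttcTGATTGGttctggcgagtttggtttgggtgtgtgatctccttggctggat
H2-Eb1: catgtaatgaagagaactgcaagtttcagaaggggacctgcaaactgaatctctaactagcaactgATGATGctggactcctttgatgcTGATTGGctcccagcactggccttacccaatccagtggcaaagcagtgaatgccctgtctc
The capitals mark TGATTGG, the core of the Y box, and ATGATG or TGACG, letters of the X box region, which do not overlap here. Searched on both strands in the 250 bases before the start, TGATTGG was found in 7.23%, ATGATG in 9.39% and TGACG in 17.8% of 32851 promoters. A stretch with either of the last motifs followed by TGATTGG within 40 bases was found in 0.253% of promoters, among them those of *H2-Aa*, *H2-Eb1*, *H2-DMb1*, *H2-DMb2* and *H2-Ob*. The windows of *H2-Oa* and *H2-Eb2* held TGATTGG without the pair, and both windows of *H2-DMa* held none of the motifs. Such a match is a description of letters, not of binding.

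Cells with at least 500 UMIs and 200 genes were kept, 3710 of 3893 NASH cells (95.3%) and 4209 of 4336 control cells (97.1%), with a median of 1654 UMIs per NASH cell and 1683 per control cell. The libraries had 21 cell barcodes in common. The NASH columns carry no names and were read in the order of the control table. Around *Cd74*, *Ciita* and the H2 genes the levels by class had correlations of 0.966, 0.954 and 0.986 between libraries in this order, against at most 0.273 at a shift of 1 or 2 columns. Cells were clustered without the class II genes and named by marker genes, so that a name such as monocyte stands for cells resembling monocytes. Levels are UMIs of a gene, or of all 7 genes, added up within a class of 1 library and scaled to 1000000 UMIs of the same cells (CPM). UMIs count molecules, so levels of different genes can be set side by side.

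The class II genes were far higher in 6 presenting classes than in endothelial cells, T cells, NK cells and neutrophils. In the NASH library conventional dendritic cells held the highest summed level of the 7 genes, 76249 CPM, followed by *Cx3cr1* macrophages with 59699 CPM. In the control library the order of these classes was the other way, with 77124 CPM in *Cx3cr1* macrophages and 69072 CPM in conventional dendritic cells. B cells followed with 38669.9 CPM in NASH and 38051 CPM in the control. Monocytes held 30334 CPM and Kupffer cells 24027 CPM in NASH, against 22464 CPM and 25861 CPM in the control, so that these classes changed places as well. Plasmacytoid dendritic cells, which mainly make interferon, closed the presenting classes with 14686 CPM in NASH and 16919 CPM in the control. In the sum of the 7 genes no intervals of neighbouring presenting classes overlapped within a library.

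**Figure D1:**
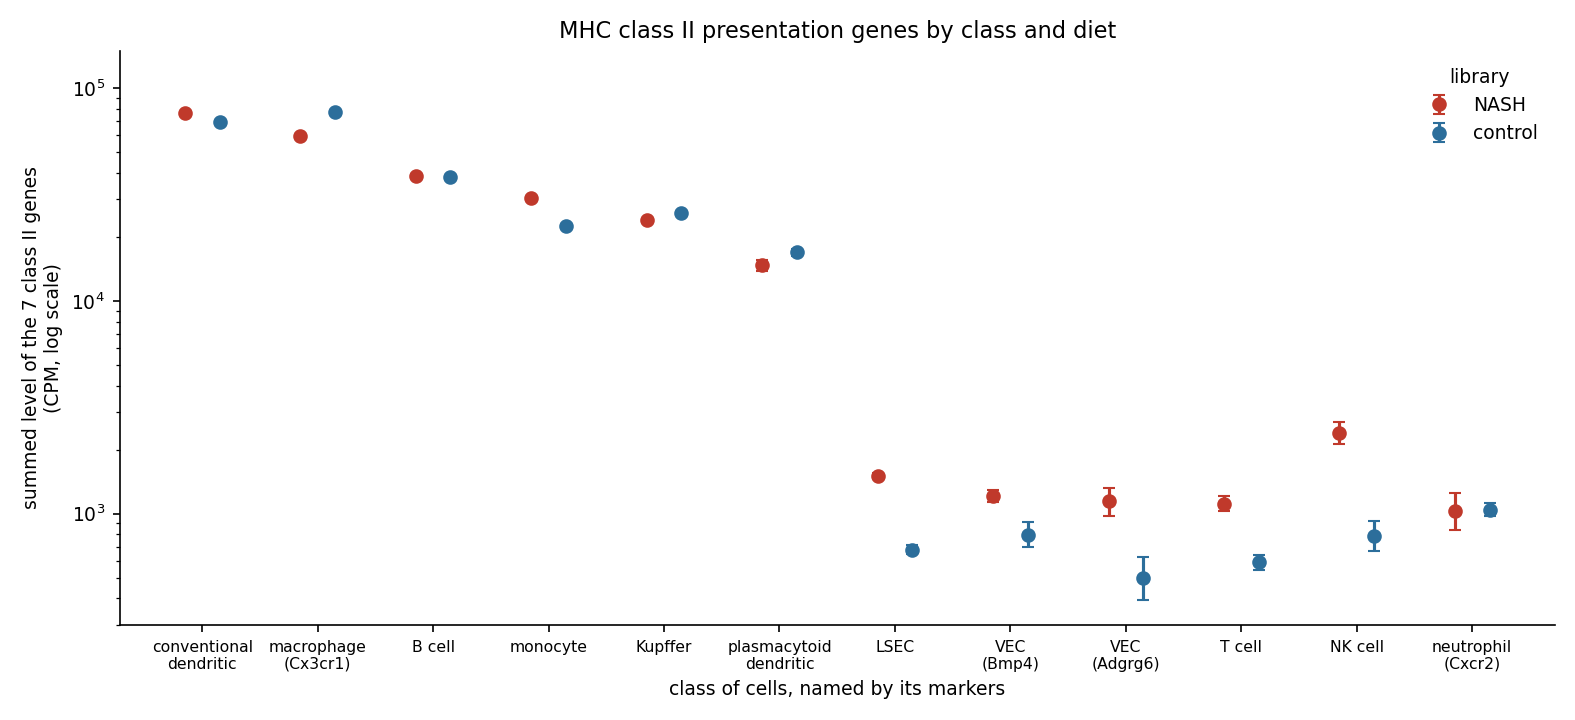
Summed level of the 7 class II genes in CPM on a log axis, for 12 classes of cells on the horizontal axis, with NASH points left of control points and bars for the 95% counting interval. The 6 presenting classes lie between 14686 and 77124 CPM, and the endothelial cells, T cells, NK cells and neutrophils between 498 and 2399 CPM.

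Monocytes were the presenting class with the largest difference in favour of NASH. Their summed class II level was 30334 CPM in NASH, against 22464 CPM in the control, a log2 ratio of 0.43 (interval 0.40 to 0.47). *H2-Eb1* was at 4334 CPM in NASH and 2986 CPM in the control (log2 0.54), and *H2-Ab1* at 7338 CPM in NASH and 5156 CPM in the control (log2 0.51). *Cd74* and *H2-Aa* had log2 ratios of 0.42 and 0.43, whereas *H2-DMa* was at 426 CPM in NASH and 471 CPM in the control (log2 -0.15, interval -0.40 to 0.11) and *H2-DMb1* at 270.5 CPM and 249.9 CPM (log2 0.11, interval -0.22 to 0.46). The chains and the invariant chain were thus higher in the NASH library, while both genes of the exchange dimer had intervals across 0. None of the 7 genes reached a 1.5-fold difference upward and 1, *Ciita*, did so downward, where 18.5% of the 4045 genes with at least 50 UMIs in monocytes were lower by that size.

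The monocytes were a mixture in both libraries. The median NASH monocyte held 20091 CPM of class II RNA, against 3178 CPM for the median control monocyte, and 10000 CPM or more was reached by 59.3% of 263 NASH monocytes (53.1 to 65.3%) and 38.5% of 122 control monocytes (29.9 to 47.8%). Clustered again, most of them fell into a subcluster led by *Fn1* and *F13a1*, genes of classical monocytes, with 216 NASH and 76 control cells, or into one led by *Ace*, a gene of patrolling monocytes, with 35 NASH and 47 control cells. These subclusters were formed over all myeloid cells and take in a few cells of the neighbouring classes. *Gpnmb*, a gene of the macrophage marker list, was also among the leading genes of the monocyte class and of the subcluster led by *Fn1*. Summed class II in the *Fn1*-led subcluster was 31842 CPM in NASH and 30533 CPM in the control (log2 0.06), and in the *Ace*-led subcluster 8127 CPM in NASH and 11395 CPM in the control (log2 -0.49). The size of the difference in the whole class was thus seen in neither subcluster. Without the *Ace*-led subcluster the log2 ratio of the class was 0.26, and as a mean over cells 0.66. Markers of Kupffer cells were higher in the NASH monocytes, 3228 CPM over 14 genes against 1405 CPM in the control monocytes, and markers of monocytes were lower, 7342 CPM over 9 genes against 16911 CPM. Markers of conventional dendritic cells were lower in the NASH monocytes as well, 554 CPM over 12 genes against 842 CPM. The part of these shifts in the class II and *Ciita* differences was not tested.

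**Figure D2:**
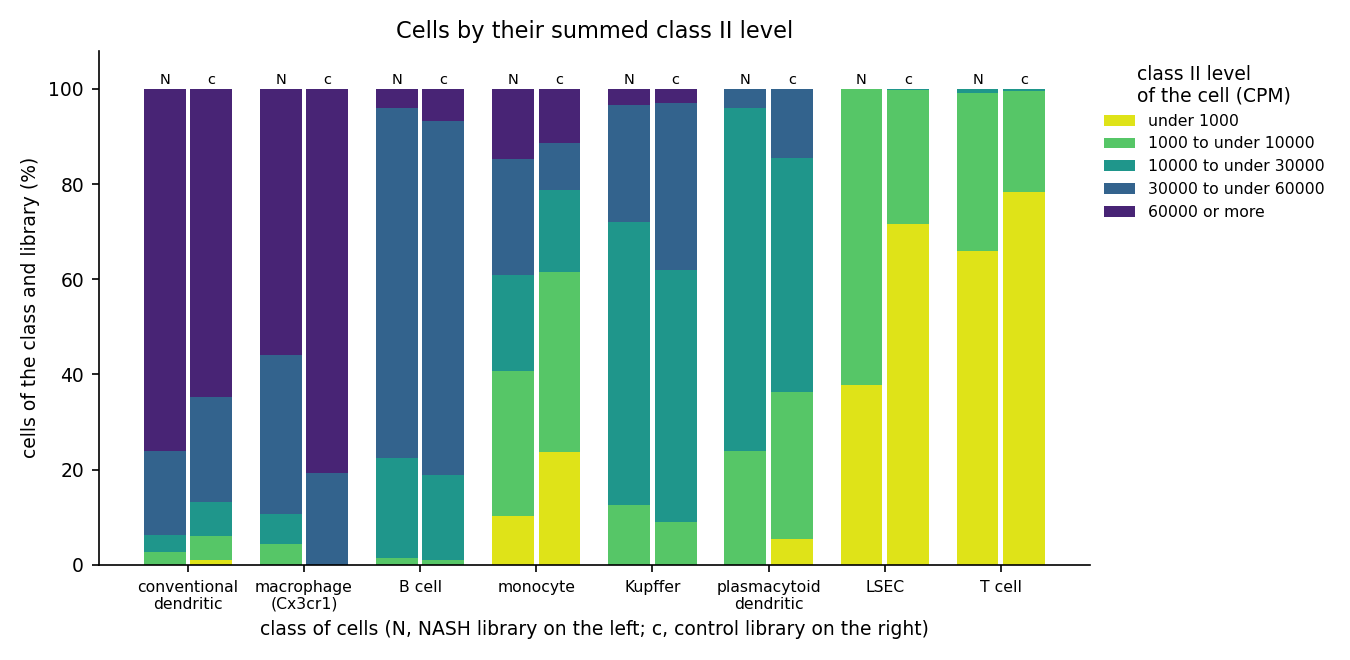
Share of cells in percent by their own summed class II level in CPM, for the 6 presenting classes, LSECs and T cells, with the NASH bar (N) left of the control bar (c) and darker colours for higher levels. Among monocytes 10.3% of NASH cells and 23.8% of control cells lay under 1000 CPM, and among LSECs 37.8% of NASH cells and 71.6% of control cells did.

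*Cx3cr1* macrophages, a cluster led by *Cx3cr1*, *Mmp13*, *Olfml3* and *Ms4a7*, differed the other way. Their summed level was 59699 CPM in 93 NASH cells and 77124 CPM in 31 control cells, a log2 ratio of -0.37 (interval -0.40 to -0.33). All 7 genes were lower in NASH, with log2 ratios from -0.55 for *Ciita* and -0.50 for *H2-Eb1* to -0.31 for *H2-Ab1* and *H2-DMb1*. None differed by 1.5-fold, where 22.4% of 1956 genes did so in either direction. The class was named from 4 macrophage markers, and the control value rests on 31 cells.

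Conventional dendritic cells, which carry antigen to T cells and were the strongest presenting class in NASH, held 76249 CPM in 113 NASH cells and 69072 CPM in 99 control cells (log2 0.14, interval 0.12 to 0.16). In the same cells Kupffer cell markers summed to 1411 CPM in NASH and 969 CPM in the control over 14 genes, and monocyte markers to 3295 CPM and 4934 CPM over 9 genes, and their part in the difference was not tested. *H2-Aa* was at 17309 CPM in NASH and 14620.5 CPM in the control, and *H2-Eb1* at 12479.8 CPM and 10537 CPM, both with a log2 ratio of 0.24. *H2-DMa* was at 856 CPM in NASH and 1001 CPM in the control (log2 -0.23, interval -0.41 to -0.04). Over the whole class the chains and *H2-DMa* thus differed in opposite directions. None of the 7 genes reached 1.5-fold, against 12.7% of 3444 genes, and the median of their log2 ratios was 0.07. The higher sum stood in the subcluster led by *Cd209a*, a gene of type 2 dendritic cells, with 80093 CPM in NASH and 68145 CPM in the control (log2 0.23). The subcluster led by *Itgae* and *A530099J19Rik*, of which *Itgae* marks type 1 dendritic cells, held 70449.6 CPM in NASH and 71346 CPM in the control (log2 -0.02, interval -0.05 to 0.01).

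Kupffer cells, the resident macrophages of the sinusoids, held the largest share of the class II UMIs of each library although their level was moderate. The sum was 24027 CPM in 470 NASH cells and 25861 CPM in 493 control cells (log2 -0.11, interval -0.12 to -0.09). The log2 ratios of the 6 genes other than *Ciita* lay between -0.14 and -0.04, and none of the 7 genes reached 1.5-fold, against 8.27% of 6181 genes. As a mean over cells the log2 ratio of the sum was -0.18. The subclusters of Kupffer cells were nearly specific to a diet. One, led by immunoglobulin genes, *Cxcl13* and *Marco*, had 41 NASH and 374 control cells with 31889 CPM in NASH and 26254 CPM in the control, and the other, led by *Lepr*, haemoglobin genes and *Acot1*, had 336 NASH and 14 control cells with 23290.3 CPM in NASH and 26474 CPM in the control. The direction of the difference was thus opposite in the 2 subclusters, and the cells of the first had a median of 2338 UMIs in NASH and 7005 in the control.

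B cells carried a similar amount of class II RNA in both libraries. The sum was 38669.9 CPM in 195 NASH cells and 38051 CPM in 627 control cells (log2 0.02, interval -0.01 to 0.06). *Cd74*, which lies on chromosome 18 apart from the other members, was at 17422 CPM in NASH and 16377 CPM in the control (log2 0.09). It made up 45.1% of the class II UMIs of NASH B cells and 43.0% of those of control B cells, against 32.3% and 32.6% in conventional dendritic cells. B cells thus held more invariant chain for each class II chain than dendritic cells did in both libraries. None of the 7 genes reached 1.5-fold, against 14.1% of 3626 genes. In plasmacytoid dendritic cells, with 25 NASH and 55 control cells, *H2-Ab1* was at 2410 CPM in NASH and 3629 CPM in the control (log2 -0.59, interval -0.83 to -0.35) and *H2-DMa* at 341 CPM and 532 CPM (log2 -0.62, interval -1.32 to -0.01). These were 2 of the 5 members with at least 50 UMIs there, and 8.44% of 1054 genes were lower by 1.5-fold or more in that class. *Cd74* was level, at 7015 CPM in NASH and 7002 CPM in the control, and without it the log2 ratio of the sum was -0.37 in place of -0.20.

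**Figure D3:**
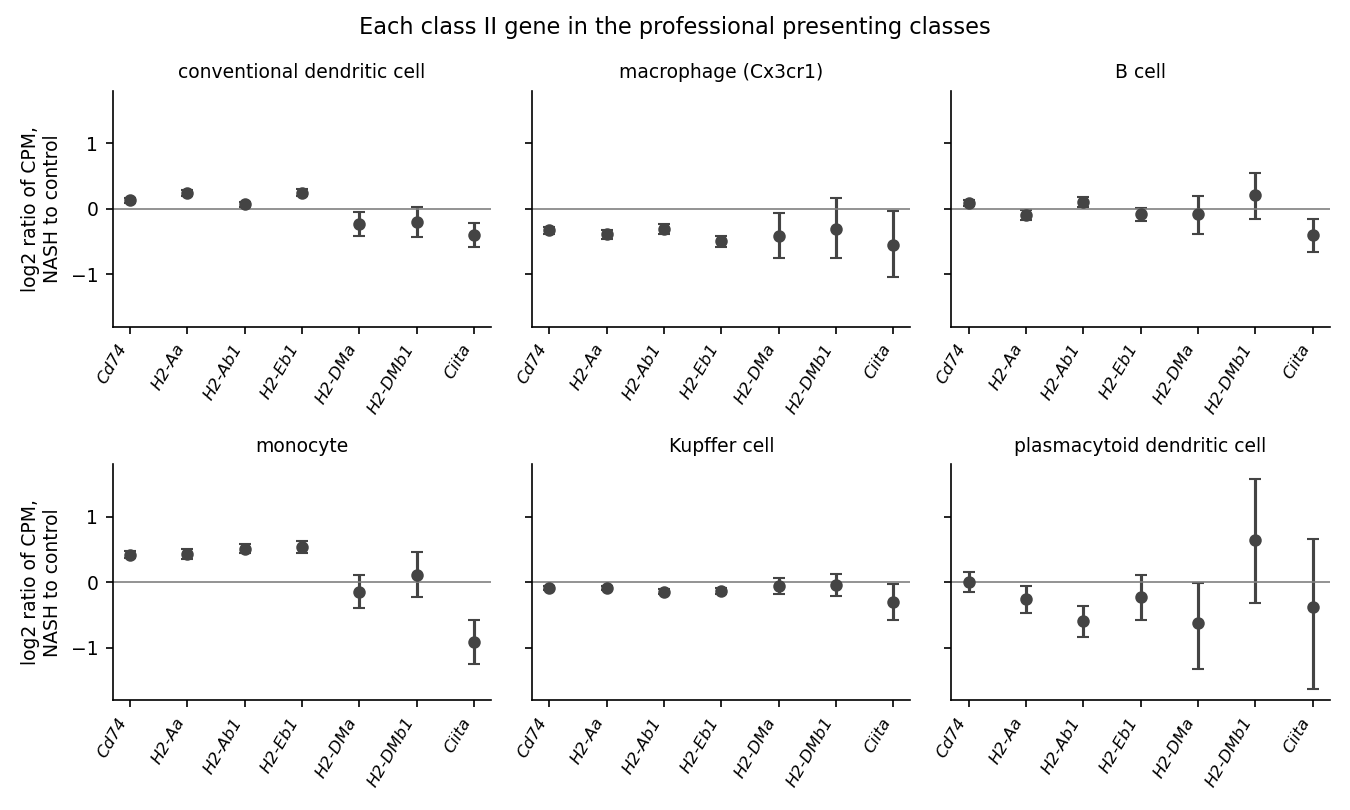
Log2 ratio of CPM, NASH to control, for each of the 7 genes in the 6 presenting classes, with bars for the 95% counting interval and a line at 0. *Ciita* lies below 0 in all 6 classes, from -0.29 in Kupffer cells to -0.91 in monocytes, while *H2-Eb1* runs from -0.50 in macrophages to 0.54 in monocytes.

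*Ciita*, the coactivator, was lower in NASH in all 6 presenting classes, and in 5 of them the interval lay below 0. It was at 815 CPM in NASH and 1072 CPM in the control in conventional dendritic cells (log2 -0.39, interval -0.58 to -0.21), and at 646 CPM and 854 CPM in B cells (log2 -0.40, interval -0.66 to -0.15). In monocytes it was at 175 CPM in NASH and 329 CPM in the control (log2 -0.91, interval -1.24 to -0.58). In Kupffer cells it was at 76.3 CPM in NASH and 93.6 CPM in the control (log2 -0.29, interval -0.57 to -0.02). Over the whole classes *Ciita* was thus lower where the chains it controls were higher, in NASH monocytes and dendritic cells. Of the dendritic subclusters, the one led by *Cd209a* had log2 ratios of -0.38 for *Ciita* and 0.31 for *H2-Aa*. The one led by *Itgae* and *A530099J19Rik* had -0.48 for *Ciita* and -0.02 for the sum, so that the opposition was not seen there. For every 1000 UMIs of *H2-Aa* and *H2-Ab1* there were 12.2 of *Ciita* in NASH monocytes (10.6 to 14.1) and 31.8 in control monocytes (26.4 to 38.0). In the *Fn1*-led subcluster *Ciita* was at 194 CPM in NASH and 478 CPM in the control (log2 -1.30, interval -1.63 to -0.97). There *H2-Aa* (log2 0.02) and *H2-Eb1* (log2 0.04) were level, with intervals across 0. This subcluster is not a subset of the monocytes, since its control cells held 133 *Ciita* UMIs and all control monocytes 125.

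The amount of *Ciita* RNA did not order the classes by their class II level. B cells had 42.9 *Ciita* UMIs per 1000 UMIs of *H2-Aa* and *H2-Ab1* in NASH and 56.9 in the control, and conventional dendritic cells 22.1 in NASH and 32.2 in the control. *Cx3cr1* macrophages had 10.2 in NASH and 11.6 in the control, and Kupffer cells 6.94 in NASH and 7.87 in the control. *Ciita* in Kupffer cells was thus low for the level of the chains, in both libraries.

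H2-M, the exchange dimer, is counted here by *H2-DMa* and *H2-DMb1*. *H2-DMa* was lower in NASH in all 6 presenting classes, with log2 ratios from -0.62 to -0.06 and an interval below 0 in 3 of them. *H2-DMb1* lay above 0 in 3 classes and below 0 in 3, with every interval across 0. For every 100 UMIs of *H2-Aa* and *H2-Ab1* there were 3.82 of the dimer in NASH dendritic cells (3.55 to 4.11) and 4.92 in control dendritic cells (4.59 to 5.27). In monocytes there were 4.86 in NASH (4.53 to 5.22) and 6.97 in the control (6.14 to 7.88). In Kupffer cells the values were 5.58 in NASH and 5.35 in the control, with overlapping intervals. The values were 3.60 in NASH and 3.65 in control macrophages, 6.20 in NASH and 6.12 in control B cells, and 9.89 in NASH and 8.90 in control plasmacytoid dendritic cells, with overlapping intervals as well. Over the whole classes the dimer was thus lower for the same amount of chains in NASH dendritic cells and monocytes, 2 of the 6 classes. Of the dendritic subclusters, the one led by *Cd209a* had a log2 ratio of -0.47 for *H2-DMa* (interval -0.75 to -0.19). For *H2-DMb1* it had -0.29 (interval -0.63 to 0.06). The one led by *Itgae* and *A530099J19Rik* had 0.01 for *H2-DMa* and -0.05 for *H2-DMb1*, with intervals across 0. Part of the *H2-DMb1* reads can be shared with *H2-DMb2*, since 22.7% of the windows of 50 bases in *H2-DMb1* transcripts also occur in *H2-DMb2*, so the split between these copies is uncertain.

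H2-O, which restrains the exchange, was measured mainly in B cells. *H2-Ob* was at 1094 CPM in NASH B cells and 1423 CPM in control B cells (log2 -0.38, interval -0.58 to -0.18), and at 269 CPM in NASH and 322 CPM in control dendritic cells (log2 -0.26, interval -0.59 to 0.07). It was at 5.7 CPM in NASH and 9.77 CPM in control Kupffer cells, too few UMIs for a comparison. The B cells held 1.37 UMIs of H2-O for each UMI of the dimer in NASH (1.15 to 1.63) and 1.82 in the control (1.66 to 1.99), against 0.247 in NASH and 0.277 in control dendritic cells. *H2-Eb2*, a beta chain gene beside *H2-Eb1*, stood out in dendritic cells, where it was at 203 CPM in NASH and 62.9 CPM in the control (log2 1.67, interval 1.12 to 2.30). It was lower in NASH B cells, at 209.8 CPM against 265 CPM in control B cells, with an interval that includes 0 (log2 -0.33, interval -0.81 to 0.11).

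Genes that work beside class II were read from lists chosen by function, with the counts of genes that had at least 50 UMIs in a class and differed by 1.5-fold. The NASH and control monocytes differed in their mixture of subclusters and in cell markers, as given above. The part of this in the monocyte values of the lists that follow was not tested. Of 8 genes for invariant chain processing and antigen proteolysis, 5 were higher and none lower in NASH monocytes, with a median log2 ratio of 0.98 against -0.09 over all genes of the class, of which 14.8% were higher by 1.5-fold or more. Among them *Ctsd*, the aspartic protease cathepsin D, was at 1255 CPM in NASH and 153 CPM in the control (log2 3.03), and *Lgmn*, an asparagine-specific protease, at 861 CPM and 126 CPM (log2 2.76). *Ctss*, the cathepsin that removes the invariant chain, was at 8049.9 CPM in NASH and 5939.6 CPM in the control (log2 0.44). In Kupffer cells 0 of the 8 genes differed by that size in either direction, against 8.27% of all genes. In B cells and conventional dendritic cells 1 of 8 was higher and none lower, namely *Ctsd* in B cells (log2 0.82) and *Lgmn* in dendritic cells (log2 1.02). Of all genes 14.1% in B cells and 12.7% in dendritic cells differed by that size in either direction.

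Interferon gamma is a cytokine known to raise *Ciita*. The list of its receptors and responses was lower in NASH monocytes in 8 of 17 genes and higher in none, with a median log2 ratio of -0.57, where 18.5% of all genes of the class were lower. Its receptor chain *Ifngr1* was at 434 CPM in NASH and 815 CPM in the control (log2 -0.91), and the induced GTPase *Iigp1* at 56.4 CPM and 184 CPM (log2 -1.71). In Kupffer cells 1 of 17 was lower, *Gbp4* (log2 -0.70), and none was higher, against 8.27% of all genes in either direction. In conventional dendritic cells 2 of 16 were higher and none lower, close to the 12.7% of all genes in either direction, with the chemokine gene *Cxcl10* at 319 CPM in NASH and 109 CPM in the control (log2 1.54). T cells had 5 of 15 higher and none lower, against 5.22% of all genes higher.

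Of the list of transcription genes, which includes *Ciita*, 4 of 9 were lower and none higher in monocytes, against 18.5% of all genes lower, with *Irf1* (log2 -0.73), *Irf8* (log2 -0.66) and the coactivator gene *Ep300* (log2 -0.72) beside *Ciita*. Of the co-stimulation list 5 of 8 were higher and 1 lower in NASH monocytes, against 14.8% of all genes higher, with *Cd83*, a surface protein that stabilises class II molecules, at 244 CPM in NASH and 63.1 CPM in the control (log2 1.93). *Cd40*, the receptor for the T cell signal CD40L, was at 67.6 CPM in NASH and 195 CPM in the control (log2 -1.53). *Cd83* was also higher in dendritic cells (log2 0.84) and Kupffer cells (log2 0.83). Class I presentation genes, which serve CD8 T cells, had 0 of 19 past 1.5-fold in Kupffer cells, B cells and LSECs. Over all genes 8.27% in Kupffer cells and 14.1% in B cells did so in either direction, and 5.85% in LSECs were higher. In monocytes 2 of 19 were higher and 1 lower, against 14.8% and 18.5% of all genes. In conventional dendritic cells 2 of 19 were higher and none lower, against 12.7% of all genes in either direction. In *Cx3cr1* macrophages 3 of 17 were lower and none higher, against 22.4% of all genes in either direction. In *Bmp4* VECs 2 of 18 were lower and none higher, and the share of all genes lower there was not computed.

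In endothelium the class II genes lay far below the presenting cells and close to cells that should lack them. LSECs held 1500.1 CPM in 1550 NASH cells and 678 CPM in 1235 control cells (log2 1.15, interval 1.06 to 1.23). T cells, which in mice do not express class II genes, held 1115 CPM in 331 NASH cells and 590.4 CPM in 542 control cells (log2 0.92, interval 0.75 to 1.09). As a mean over cells the log2 ratio in T cells was 0.61. In the pooled sums the ratio between diets was thus nearly as large in T cells as in LSECs. When all endothelial cells were clustered again, the subcluster led by *Malat1* and *Gm10600* had 793 NASH and 358 control cells. It held 1943 CPM in NASH and 1107 CPM in the control (log2 0.81). The log2 ratio was 0.96 in the subcluster led by *Msr1*, 0.76 in that led by *Bmp4*, 0.50 in that led by *Erg* and 1.39 in that led by *Gja5*. The part of this mixture in the LSEC ratio was not tested. The median LSEC held 1325 CPM in NASH and 535 CPM in the control, and the median T cell 709 CPM and 432 CPM. NK cells held 2399 CPM in NASH and 788 CPM in the control (log2 1.60, interval 1.32 to 1.89), pooled sums above those of LSECs in both libraries. The median NK cell held less than the median LSEC, 735 CPM in NASH and 496 CPM in the control, and 2 of 75 NASH NK cells reached 10000 CPM. In *Cxcr2* neutrophils the log2 ratio was -0.02 (interval -0.33 to 0.28), so these classes differed in their ratios. In pooled sums LSECs held 1.34 times the level of T cells in NASH and 1.15 times in the control. *Cxcr2* neutrophils, which should also lack class II RNA, held 1031 CPM in NASH and 1046 CPM in the control. These pooled sums were less than those of LSECs in NASH and more than those of LSECs in the control. The median *Cxcr2* neutrophil held 782 CPM in NASH and 0 CPM in the control, less than the median LSEC in both libraries. In UMIs, the mean LSEC held 2.09 class II UMIs in NASH and 1.23 in the control, and the mean T cell 1.82 in NASH and 1.0 in the control.

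By gene, 4 of the 7 members had at least 50 UMIs in LSECs and all 4 were at least 1.5-fold higher in NASH, where 5.85% of 6159 genes were. *Cd74* was at 601 CPM in NASH and 245 CPM in control LSECs (log2 1.30, interval 1.15 to 1.44), and *H2-Ab1* at 373 CPM and 169 CPM (log2 1.14). *Ciita*, with 11 UMIs in NASH and 13 in control LSECs, was at 5.1 CPM and 5.78 CPM, a difference not detectable at this depth. In T cells 4 of 5 such members were higher by that size, where 5.22% of 4487 genes were, and *Cd74* was at 420.4 CPM in NASH and 205 CPM in the control (log2 1.04, interval 0.75 to 1.32). The LSEC count therefore had its counterpart in a class used as background, and the part of free RNA in the endothelial difference was not tested.

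With every cell thinned to 1000 UMIs, a *Cd74* UMI was found in 40.1% of 1009 NASH LSECs (37.1 to 43.2%) and 18.98% of 943 control LSECs (16.5 to 21.6%). In T cells it was found in 27.0% of 285 NASH cells (21.9 to 32.6%) and 16.3% of 460 control cells (13.05 to 20.003%). The share in NASH LSECs lay above that in NASH T cells, whereas the intervals of control LSECs and control T cells overlapped. In the sum of the 7 genes control LSECs held slightly more than control T cells (log2 0.20, interval 0.06 to 0.34). Unthinned, the shares were 52.2% of NASH LSECs and 32.9% of control LSECs, at median depths of 1222 and 1594 UMIs, and 39.3% of NASH T cells and 25.8% of control T cells, at 1524 and 1570 UMIs. Cells with 10000 CPM or more were 2 of 1550 NASH LSECs and 3 of 1235 control LSECs. Endothelial cells with markers of other cells had been set apart beforehand, and 10 of 27 NASH and 3 of 32 control cells among them reached that level. Among the LSECs counted, no group with class II levels of a presenting cell was seen in either library.

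**Figure D4:**
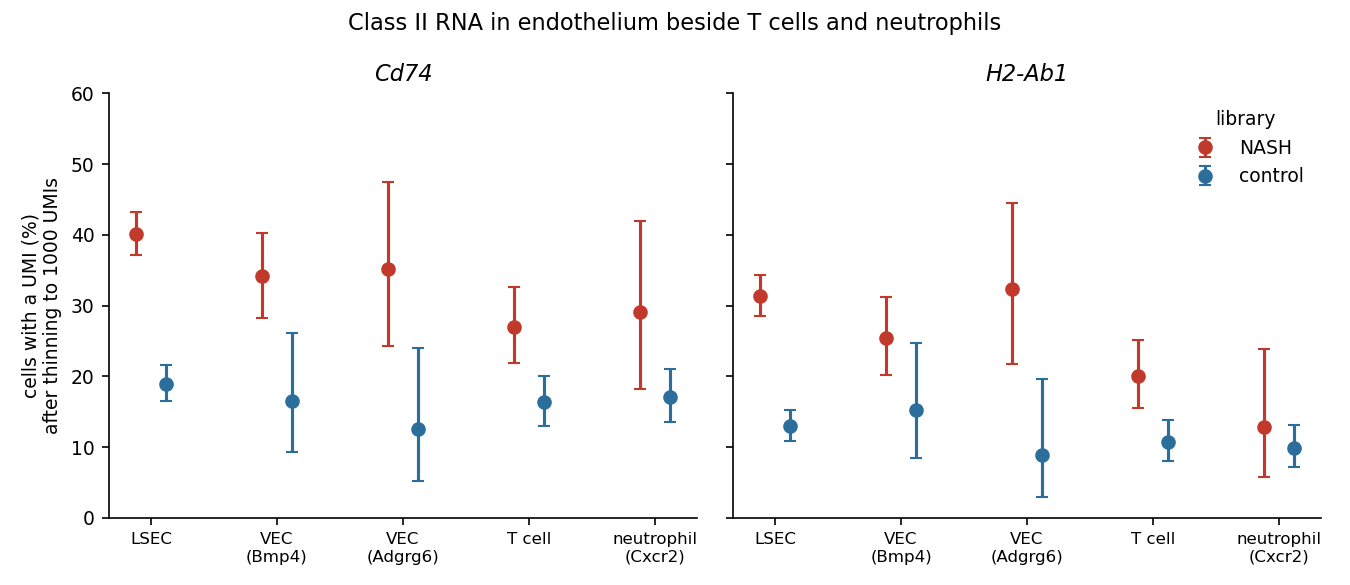
Share of cells in percent with a *Cd74* UMI (left) and an *H2-Ab1* UMI (right) after thinning each cell to 1000 UMIs, for 3 endothelial classes beside T cells and *Cxcr2* neutrophils, with NASH points left of control points and bars for the exact binomial 95% interval. For *Cd74*, NASH LSECs lie at 40.1% and NASH T cells at 27.0%, and control LSECs at 18.98% and control T cells at 16.3%.

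Vascular endothelial cells (VECs) were also far below the presenting cells. The VECs with *Bmp4* held 1215 CPM in 255 NASH cells and 798 CPM in 90 control cells (log2 0.60, interval 0.39 to 0.83), where *Cd74* (log2 0.84) and *H2-Ab1* (log2 0.67) were the 2 of 4 measured members past 1.5-fold, against 8.92% of 3732 genes. The median log2 ratio of the 7 genes was 0.38 in these cells. The VECs with *Adgrg6* held 1142 CPM in 74 NASH cells and 498 CPM in 57 control cells (log2 1.19, interval 0.80 to 1.61). Compared with T cells of the same library, the *Bmp4* VECs held 1.09 times the level in NASH and 1.35 times in the control. They lay nearer to T cells in NASH than in the control, unlike LSECs. A subcluster of 53 endothelial cells with macrophage and Kupffer cell markers among its leading genes, such as *Marco*, *C1qa* and *Aif1*, had been set apart together with 6 cells with fibroblast markers. The first held 10746 CPM in 26 NASH cells and 5346 CPM in 27 control cells. With these cells counted in, the ratio of the *Bmp4* VECs turned to -0.31 and that of LSECs was 0.99.

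The marker lists of Kupffer cells, conventional dendritic cells and B cells did not rise in NASH LSECs as the class II genes did. Over 14 genes Kupffer cell markers summed to 3205 CPM in NASH LSECs and 3141 CPM in control LSECs, and over 12 genes markers of conventional dendritic cells to 486 CPM and 495 CPM. Those of B cells summed to 51.5 CPM in NASH and 65.4 CPM in control LSECs over 14 genes, of which 13 and 14 held a UMI. Those of monocytes summed to 86.7 CPM in NASH and 76.9 CPM in control LSECs over 9 genes. In T cells the Kupffer cell list summed to 670 CPM in NASH and 507 CPM in the control, far below its level in LSECs. The list of conventional dendritic cells summed to 137 CPM in NASH and 215 CPM in control T cells, also below its level in LSECs. *Clec9a* of that list was among the leading genes of the endothelial subcluster led by *Malat1* and *Gm10600*. Antibody RNA was far lower in NASH, with *Igkc* at 319.9 CPM in NASH and 2777 CPM in control LSECs. The other genes of the presentation pathway were mostly level in LSECs, where 0 of 8 transcription genes and 0 of 19 class I genes differed by 1.5-fold. *Ctss* (log2 0.69) and *Ctsc*, the gene of cathepsin C (log2 0.89), were 2 of 8 proteolysis genes higher in NASH LSECs, where 5.85% of all genes were. *Ly86*, whose level over the classes resembled that of the class II genes, was at 68.1 CPM in NASH and 30.2 CPM in control LSECs. *Pkib* and *Pld4*, which resembled them as well, were lower in NASH LSECs, at 3.24 and 7.88 CPM against 4.45 and 8.89 CPM. The part of RNA from presenting cells in the LSEC difference was not tested.

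Within the presenting cells the share of *H2-Aa* varied less than that of *H2-Eb1*. *H2-Aa* made up 18.8% to 23.6% and *H2-Eb1* 8.42% to 17.6% of the class II UMIs over the 6 classes and both libraries, with the low *H2-Eb1* shares in plasmacytoid dendritic cells. Over 26 points, 13 classes in each library, each gene correlated with the sum of the other 6 at r of 0.950 for *Ciita* to 0.997 for *H2-Aa* on the log2 scale. These points share libraries and depth and are not independent. The genes with the most similar pattern over the same points, among 6869 with enough UMIs, were *Fgd2* (r = 0.957), *Ly86* (0.941), *Irf5* (0.933), *Cd180* (0.933), *Pkib* (0.928) and *Ctss* (0.903). *Fgd2*, a guanine exchange factor gene, was at 144 CPM in NASH and 160.2 CPM in control dendritic cells, and at 5.1 CPM in NASH and 3.11 CPM in control LSECs.

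Counted over the whole library, class II RNA made up 19583 CPM in NASH and 16010.1 CPM in the control (log2 0.29). Kupffer cells held 30.3% of these UMIs in NASH and 44.9% in the control, and B cells 5.19% in NASH and 16.5% in the control. Monocytes held 19.3% in NASH and 4.68% in the control, *Cx3cr1* macrophages 13.2% and 5.13%, and conventional dendritic cells 22.8% and 19.8%. The sources thus differed more between the libraries than the levels within the classes did. With each class's share of all UMIs in the NASH library and the levels of the control library the sum would be 18539 CPM. With the shares of UMIs in the control library and the levels of the NASH library it would be 16731 CPM. Such shares depend on depth per cell as well as on numbers of cells. LSECs, 41.8% of the NASH cells and 29.3% of the control cells, held 1.79% of the class II UMIs in NASH and 0.836% in the control. Shares of cells can be set by tissue digestion, and this was not tested.

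**Figure D5:**
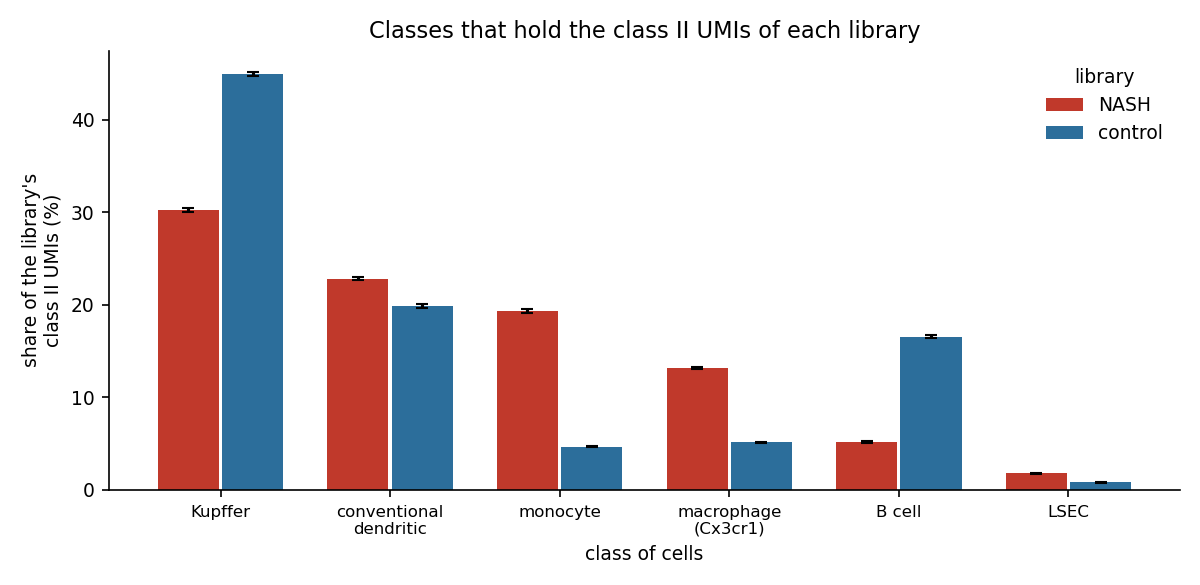
Share in percent of each library's class II UMIs held by 6 classes, with NASH bars left of control bars and 95% counting intervals. Monocytes and *Cx3cr1* macrophages hold 19.3% and 13.2% in NASH against 4.68% and 5.13% in the control, and Kupffer cells and B cells 30.3% and 5.19% in NASH against 44.9% and 16.5% in the control.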

How the data were processed

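UMI counts per gene and cell were analysed for 2 libraries of liver NPCs, 1 from MCD-fed NASH mice and 1 from control mice, each a pool of 3. The deposited counts were made by the authors with the BD Rhapsody whole transcriptome pipeline on GRCm38, without normalization (annotation version not given in the sources used here). The gene columns analysed run alphabetically to *Rad54l2*, so totals per cell cover part of each library, and no filter on mitochondrial genes was used. Kept cells summed to 9249745 UMIs in NASH and 11399278 in the control. The members and lists were chosen with earlier results of these data known.

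Cells were clustered in Seurat 5.3.0 (R 4.3.3) with 2000 variable genes less 9 class II genes, 50 principal components and resolution 0.6, and named by 21 marker lists. Endothelial and myeloid cells were clustered again, and endothelial subclusters with markers of other cells were set apart after the data were seen. Scrublet (scanpy 1.11.5) marked 3 NASH and 56 control cells, so that it did not work in the NASH library, and doublets were kept. Sums were computed in Python 3.11.15 with numpy 2.4.6 and scipy 1.17.1. CPM carry exact Poisson intervals, shares exact binomial intervals, and log2 ratios, with 0.5 UMI added to each sum, the interval of an exact binomial share. Differences of 1.5-fold were counted by size over genes with at least 50 UMIs in both libraries of a class together. The ratio was tested on simulated data. Named genes were the members in every class, up to 4 genes of a list in a class (the largest ratios or the highest level, from 50 UMIs), and the 8 most like the sum. Positions came from GENCODE M21, and promoters from RefSeq. Alternatives covered the clustering, doublets, depth per cell, means over cells, the totals, *Cd74* and thinning.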

Additional observations from a re-analysis of the deposited data

Results flagged for a closer look

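The sum of the 7 genes differed in opposite directions in 2 macrophage-lineage classes. The log2 ratio of NASH to control was 0.43 in monocytes and -0.37 in *Cx3cr1* macrophages, 0.80 apart. With 1 library per diet the difference was not tested, and the macrophage value rests on 31 control cells.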

How the results depend on the processing

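With 1 library per diet the values carry no replicate check, and the log2 ratio comes from no test. No paired analysis was possible because each diet has 1 library. The log2 ratio of the sum of the 7 genes stayed within its counting interval at resolution 1.0 and in totals without immunoglobulin and class II genes, in the 9 classes for which it was recomputed (the 6 presenting classes, LSECs, *Bmp4* VECs and T cells). As the mean of CPM per cell it was 0.20 in dendritic cells, -0.054 in B cells, 0.66 in monocytes, -0.18 in Kupffer cells and 0.61 in T cells. As the median of the 7 genes it was 0.069 in dendritic cells, -0.083 in B cells, -0.088 in Kupffer cells and 0.38 in *Bmp4* VECs. Without *Cd74* it was -0.029 in B cells, -0.37 in plasmacytoid dendritic cells and 1.05 in LSECs. With the class II genes kept for clustering it was -0.33 in macrophages and -0.014 in B cells, and in B cells also -0.031 without doublets and 0.067 with at least 1000 UMIs per cell. Alternatives chosen after the data were seen gave 0.12 in dendritic cells, -0.46 in macrophages, 0.39 in monocytes and -0.087 in Kupffer cells without the myeloid subcluster led by endothelial genes, and 0.26 in monocytes without the subcluster led by *Ace*. With the endothelial cells that carry other markers LSECs came to 0.99 and *Bmp4* VECs reversed to -0.31, with *Cd74* at -0.21 and *H2-Ab1* at -0.34 there. Without thinning the share of cells with a *Cd74* UMI was 52.2% of NASH and 32.9% of control LSECs, and 39.3% of NASH and 25.8% of control T cells. The causes of these shifts were not tested. Depth limits *Ciita*, *H2-DMa* and *H2-DMb1* in endothelium, where each held under 50 UMIs.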

Other observations

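In plasma cells *Cd74* took a larger share of the class II UMIs than in B cells, at a lower level. In 7 NASH plasma cells *Cd74* made up 73.6% of the class II UMIs and in 109 control plasma cells 62.9%, while *H2-Aa* made up 6.75% and 7.8%, against 18.8% and 20.4% in NASH and control B cells. *Cd74* was at 2452 CPM in NASH and 2430.0 CPM in control plasma cells, against 17422 CPM and 16377 CPM in NASH and control B cells. The sum of the 7 genes in plasma cells was 3331 CPM in NASH and 3863 CPM in the control. *H2-DMa* had a larger share in T cells than in B cells, where it made up 1.40% of the class II UMIs in NASH and 1.52% in the control. It made up 3.82% of the class II UMIs of NASH T cells and 7.93% of those of control T cells, against 1.02% and 0.85% in NASH and control LSECs. Its level in T cells was 42.6 CPM in NASH and 46.8 CPM in the control, and in NK cells 56.3 CPM in NASH and 64.5 CPM in the control, while the summed level of both classes was higher in NASH. Cycling cells, a mixture of types, held 30286 CPM in 45 NASH cells and 13055 CPM in 60 control cells. Neutrophils led by *Acod1* held 3357 CPM in 49 NASH cells and 729 CPM in 15 control cells, and cholangiocytes 1203 CPM in 35 NASH cells and 1959 CPM in 44 control cells.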
